A study of Mus musculus with 3 samples.

Results

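The genes described here encode the collagens, the laminins and 6 further matrix proteins (fibronectin, Sparc, matrix Gla protein, nidogen 1, nidogen 2 and perlecan). They were taken by symbol and by no measured value: every Col gene numbered as an alpha chain, every Lama, Lamb or Lamc gene, and Fn1, Sparc, Mgp, Nid1, Nid2 and Hspg2. This gave 57 genes of the 19274 in the deposited tables, namely 40 collagen chains, 11 laminin chains and the 6 others. All 57 stood among the 19208 genes of metastasis-bearing brains and 53 among the 17453 genes of naive brains. Col6a4, Col6a5, Col10a1 and Col28a1 had no row in the naive table.

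The RNA came from single cells of mouse brains (CITE-seq, droplets read from the 3' end) enriched for immune cells on a Percoll gradient. All mice were females of a C57Bl/6 background aged 2 to 3 months, and 1 hemisphere of each brain was used. The metastasis-bearing group had received E0771 cells, a mouse mammary carcinoma line, through the carotid artery about 2 weeks before, and the naive group carried no metastases. In each state 2 brains were Cx3cr1+/- (heterozygous) and 2 were Cx3cr1-/- (homozygous), so all brains lacked at least 1 working copy of this chemokine receptor gene, and no wild-type brain was used here. The 8 brains were marked with hashtag antibodies and run in 1 pool. Brains are the replicates below. P-values set differences against the spread between these brains only, with each gene's variance drawn partly from genes of like level.

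The extracellular matrix is the protein scaffold around cells. Its basement membranes are thin sheets under endothelium and epithelium, built from networks of type IV collagen and of laminin (1 alpha, 1 beta and 1 gamma chain each), which nidogens and the proteoglycan perlecan join together. Fibrillar collagens such as types I and III form ropes in connective tissue, made mainly by fibroblasts. In brain, basement membranes surround the vessels, and fibroblasts lie in the meninges and around larger vessels.

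The tables list 13455 cells. As 1138 cell barcodes occur in both, they were dropped from either one, and 8443 cells of metastasis-bearing and 2736 of naive brains were used. Brains gave 1354 to 2925 cells with metastases and 337 to 957 without. Median raw UMIs (barcoded RNA molecules) per cell were, with metastases, 8199.5 and 7823.5 (heterozygous brains) and 71585 and 19767.5 (homozygous brains), and 6181 to 7096 in naive brains. The deep Krt8-high class, named for its keratins, made up 17.2 and 8.31% of a heterozygous brain's cells with metastases and 55.9 and 42.1% of a homozygous brain's. This class was also present in naive brains (136 cells), against their label of no metastases, and the labels name no tumour cells. The preparation was enriched for immune cells, yet 454 cells of a vascular cluster and 37 choroid plexus-like cells were in the metastasis-bearing table.

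Levels are given as CPM, the gene's share of all depth-corrected UMIs of a class in a brain scaled to 1000000, and errors are SDs over the 4 brains of a state. UMIs were counted at the 3' end and not per length, so values are compared between classes and brains for the same gene. Clusters had been made from these genes among others, so differences between classes are described without a test. The tables of the 2 states were corrected separately and are set side by side only. The members' summed level was 10050 ± 3643 CPM in vascular-like cells of metastasis-bearing brains, which is 1.005% of their UMIs. Krt8-high cells had 2598 ± 279, microglia-like cells 2573 ± 420.3 and choroid plexus-like cells 2522 ± 417.6 CPM, while T-like cells had 232.7 ± 16.99 CPM. In naive brains endothelial-like cells held 6663 ± 771.1, mural-like cells 5881 ± 719 and microglia-like cells 3644 ± 283.7 CPM.

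**Figure D1:**
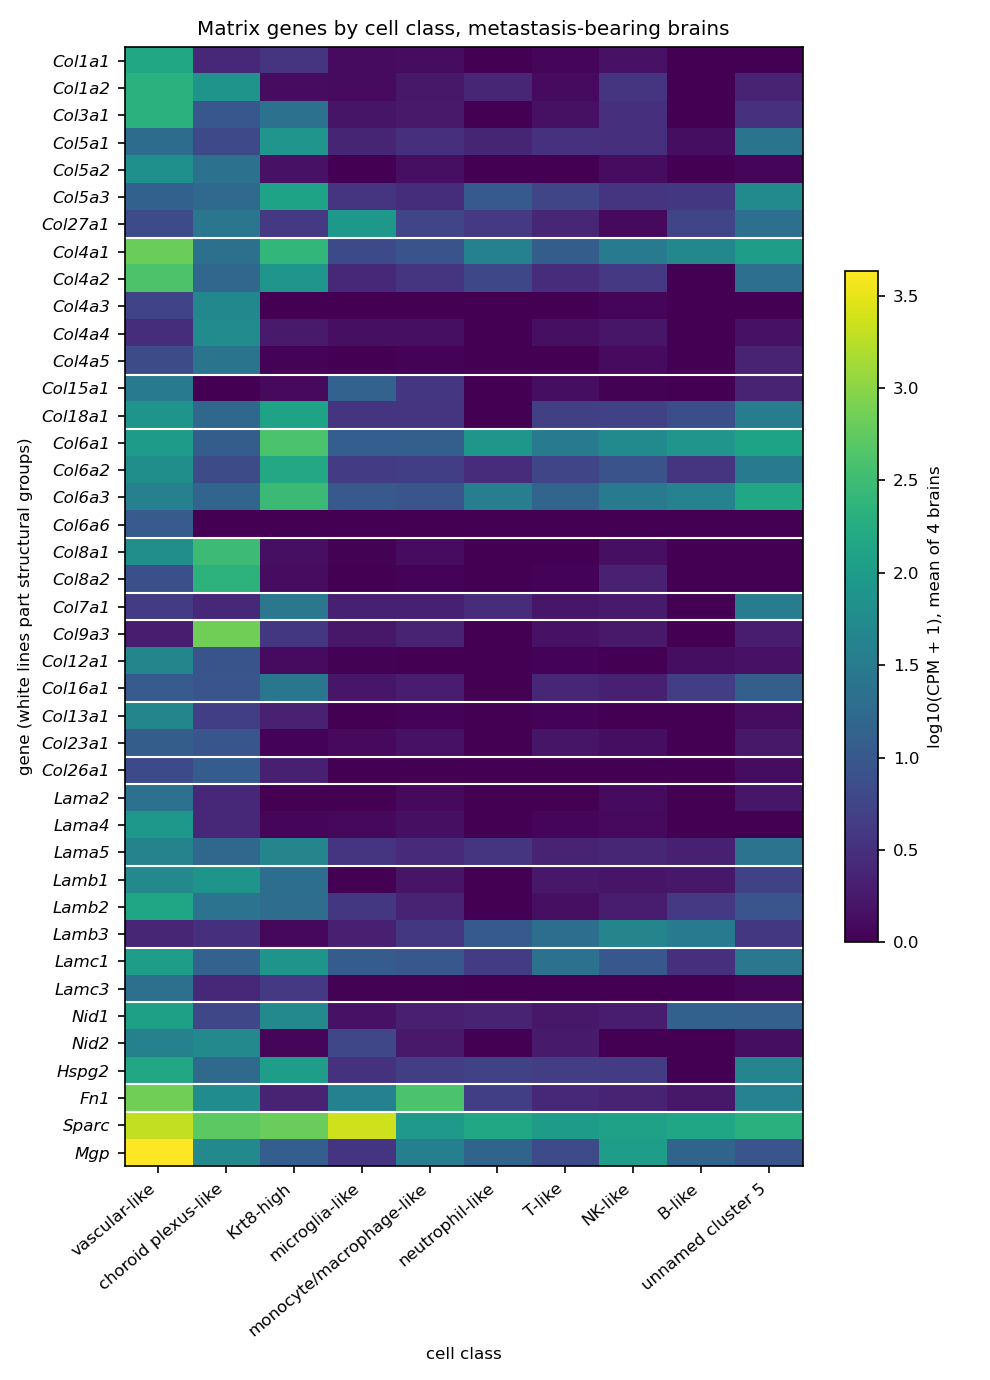
Mean level over the 4 metastasis-bearing brains of members above 10 CPM in at least 1 class, as log10(CPM + 1) on a colour scale, with genes in rows and cell classes in columns. Vascular-like cells carry the broadest set, while Col9a3, Col8a1 and Col8a2 stand out in choroid plexus-like cells, the Col6 chains in Krt8-high cells and Sparc in microglia-like cells.

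Among the 50 members with at least 20 corrected UMIs in metastasis-bearing brains, the mean level was highest in vascular-like cells for 25, in choroid plexus-like cells for 13 and in Krt8-high cells for 8. Microglia-like cells were highest for 2 members, and NK-like cells and an unnamed cluster of few UMIs for 1 each. In naive brains endothelial-like cells led for 13 members, mural-like cells for 8, Krt8-high cells for 7 and choroid plexus-like cells for 6. In metastasis-bearing brains 20 members exceeded 100 CPM in their highest class, and in naive brains 24 did.

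The type IV collagen chains Col4a1 and Col4a2, which wind together in most basement membranes, were carried by vessel cells. In vascular-like cells Col4a1 stood at 418.6 and 371.7 CPM in the heterozygous and 1072 and 788.1 CPM in the homozygous brains. Col4a2 stood at 278.6 and 197.3 against 709.8 and 471.7 CPM there. Every vascular value of either chain lay above every value of the next class, Krt8-high, where Col4a1 ran from 211 to 286 CPM and Col4a2 from 56.48 to 96.02 CPM. In naive endothelial-like cells Col4a1 was at 834.9, 959, 802.2 and 910.7 CPM, the heterozygous brains first, and Col4a2 at 431.2, 408.8, 467.3 and 525.9 CPM. The naive brains of the 2 genotypes overlapped for Col4a1 and did not for Col4a2, with too few cells in 1 brain for a test.

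The balance of the 2 chains differed by class. The Col4a1 level was 1.5, 1.88, 1.51 and 1.67 times the Col4a2 level in vascular-like cells of the 4 metastasis-bearing brains, and 2.98, 3.74, 3.17 and 3.35 times in Krt8-high cells. The ranges did not overlap. The same order stood in naive brains, where the ratio was 1.72 to 2.35 in endothelial-like, 1.11 to 1.29 in mural-like and 2.55 to 3.36 in Krt8-high cells. In the RefSeq annotation of GRCm38.p6 (the build that mm10 names) the genes lie head to head on chromosome 8 and share 85 bases at their starts.

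Laminin chains followed the vessel wall. Lama4, the alpha chain of vascular laminin, was at 51.52 and 42.39 CPM in the heterozygous and 155.2 and 95.49 CPM in the homozygous brains, and its mean was 54.3 times that of the next class. Lamb2 was at 173, 120.7, 109.9 and 134 CPM in vascular-like cells, the heterozygous brains first, and at 227.2, 215, 356.9 and 400.5 CPM in naive mural-like cells. Lamc1, the gamma chain shared by most laminins, stood at 88.01, 88.86, 142.6 and 102.6 CPM in vascular-like cells, just above the Krt8-high mean of 75.6 CPM. Lama5 did not separate the classes, with means of 44.05 CPM in Krt8-high and 41.4 CPM in vascular-like cells. It reached 113.6, 191.1, 142.8 and 57.22 CPM in naive mural-like cells, of which there were 4 to 8 per brain. Lama3 averaged 51.19 ± 13.95 CPM in naive endothelial-like cells and 8.3 CPM in vascular-like cells of metastasis-bearing brains.

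Of the 3 linkers of basement membranes, Nid1 and Hspg2 had their highest mean in vascular-like cells with metastases. Nid2 averaged 37.97 CPM there and 50.77 CPM in choroid plexus-like cells (20 UMIs), with overlapping ranges. Nid1 stood at 88.01, 97.01, 139.3 and 131.1 CPM in vascular-like cells and at 183.5, 172.9, 148 and 144.7 CPM in naive endothelial-like cells. Hspg2 (perlecan) was at 123.2, 83.97, 186.3 and 210.9 CPM in vascular-like cells, and its range overlapped that of Krt8-high cells (100.2 to 121.6 CPM). Naive endothelial-like cells held Hspg2 at 334.9, 424.5, 319.3 and 398.9 CPM. These orders are those of the Cx3cr1+/- brains followed by the Cx3cr1-/- brains, here and below. Col13a1 and Col15a1, a membrane-spanning collagen and a basement membrane collagen that ends in an endostatin-like fragment, had their clearest levels in naive endothelium. Col13a1 was at 178.9, 283, 210.3 and 268.3 CPM there and at 88.01, 29.35, 5.873 and 58.43 CPM in vascular-like cells of metastasis-bearing brains. Col15a1 was at 188.1, 184.7, 171.4 and 109.4 CPM in naive endothelial-like cells, against a mean of 29 CPM in vascular-like cells of metastasis-bearing brains.

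The vascular cluster held more than endothelium. Its 454 cells were sorted by which of 3 marker lists (endothelial, mural, fibroblast) had the highest mean value, a split that uses no matrix member. Endothelial markers led in 354 cells (145, 82, 86 and 41 per brain), mural markers in 25, 12, 9 and 6, and fibroblast markers in 27, 9, 2 and 10. Only 11 cells lay within 0.2 of the boundary on the natural log scale. The fibroblast-led cells held the fibrillar collagens, with Col1a2 at 1290, 1238, 1867 and 1490 CPM by brain. Their Col1a1 was at 715.9, 902.4, 1867 and 1460 CPM, and their Col3a1 at 479.2, 369.5, 2577 and 1981 CPM. Of these 3 chains Col3a1 varied most between brains, and the first homozygous brain gave only 2 of these cells. Their Mgp, which encodes an inhibitor of calcification, was at 24260, 10540, 47470 and 34340 CPM, above every value of endothelial-led (471.7 to 1920 CPM) and mural-led cells (1164 to 2049 CPM). Col12a1, a collagen that decorates fibrils, was at 461.5, 309.4, 112 and 342.6 CPM in fibroblast-led cells. Pooled over brains, mural-led cells (pericytes and smooth muscle by their markers) had Col4a1 at 564.8, Lamb2 at 209.1 and Col18a1 at 181.1 CPM, and endothelial-led cells had Col4a1 at 655.8 and Fn1 at 691.6 CPM. In the mean over brains, endothelial-led cells held Col13a1 at 56.17, Col15a1 at 30.41 and Lama3 at 10.53 CPM, beside the naive endothelial-like values above.

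The fibrillar values of the whole cluster varied widely between brains. In the whole cluster Col1a2 was at 241.3, 207.9, 72.15 and 324.9 CPM, Col1a1 at 120.6, 108.4, 41.95 and 306.4 CPM, and Col3a1 at 118.1, 110.9, 83.06 and 520.2 CPM. For each of them the first homozygous brain, with 2 fibroblast-led cells, was the lowest and the second homozygous brain the highest. Mgp ran from 1617 to 7857 CPM in the same order of those homozygous brains, with 5179 and 2570 CPM in the heterozygous ones. A single cell held 1159 of the 1927 Mgp UMIs of the first homozygous brain. In naive brains Mgp was at 2078, 707.5, 1768 and 2432 CPM in endothelial-like and at 1742, 1720, 2099 and 1659 CPM in mural-like cells, and 1 endothelial-like cell held 292 of the 453 UMIs of the first heterozygous and 431 of the 689 of the second homozygous brain. Naive mural-like cells also held Col1a2 at 170.4, 143.3, 242.7 and 171.6 CPM, Col3a1 at 75.72, 238.8, 114.2 and 85.82 CPM and Col18a1 at 208.2, 167.2, 356.9 and 314.7 CPM. Lamc1 was at 151.4, 119.4, 99.93 and 114.4 CPM in these cells.

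Choroid plexus-like cells, which make cerebrospinal fluid and express Ttr, had a matrix set of their own. Col9a3, a chain of a fibril-associated collagen best known from cartilage, was at 710.4, 474.3, 967.7 and 659.7 CPM in metastasis-bearing and 541, 1033, 713.3 and 1020 CPM in naive brains. The next class, Krt8-high, averaged 2.9 CPM in metastasis-bearing brains. The network collagens Col8a1 and Col8a2, chains of type VIII collagen, were both there. Col8a1 stood at 215.6, 207.5, 389 and 408.4 CPM, and Col8a2 at 158.6, 186.3, 180.3 and 377 CPM in metastasis-bearing brains. In naive brains Col8a1 was at 180.3, 328.5, 470.5 and 446.2 CPM and Col8a2 at 180.3, 176, 136.6 and 140.2 CPM. Col8a1 was shared with naive mural-like cells (284, 215, 199.9 and 143 CPM), where Col8a2 had no UMI. The fibroblast-led cells of the vascular cluster held Col8a1 at 289.9, 232, 1494 and 230.9 CPM, as high as choroid plexus-like cells, and Col8a2 at 97.62, 77.35, 0 and 14.9 CPM. Of the rarer type IV chains, Col4a3 and Col4a4 were also highest here in metastasis-bearing brains, at 48.9 ± 34.47 and 55.31 ± 17.28 CPM. Col4a5 was at 23.71 ± 14.03 CPM and overlapped the range of vascular-like cells. Within the vascular cluster Col4a5 averaged 25.66 CPM in mural-led and 2.275 CPM in endothelial-led cells. In naive brains it was highest in mural-like cells, at 79.86 CPM against 31.82 CPM in choroid plexus-like cells. Lamb1 was at 90.17, 187.7, 121.4 and 114.7 CPM in naive choroid plexus-like cells. The choroid plexus-like levels rest on 11, 17, 7 and 2 cells with metastases and 1, 8, 6 and 7 without, too few for a test. The 2 cells of the second homozygous brain also carried 10080 CPM of monocyte/macrophage markers.

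As both type VIII chains were found in choroid plexus-like cells, the 250 bases before each start are shown, 5' to 3' on the gene's strand, from RefSeq (GRCm38.p6). Col8a1 is at chr16:57754738-57754987 (minus strand) and Col8a2 at chr4:126286544-126286793 (plus strand). Capitals mark the GC box, searched as GGGCGG on both strands (CCGCCC on the other), and 2 matches in Col8a2 overlap.
Col8a1: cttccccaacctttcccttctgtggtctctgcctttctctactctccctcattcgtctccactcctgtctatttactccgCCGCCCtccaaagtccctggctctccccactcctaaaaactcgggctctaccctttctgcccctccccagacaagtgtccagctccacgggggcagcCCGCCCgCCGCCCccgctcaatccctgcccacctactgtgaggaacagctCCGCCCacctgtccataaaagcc
Col8a2: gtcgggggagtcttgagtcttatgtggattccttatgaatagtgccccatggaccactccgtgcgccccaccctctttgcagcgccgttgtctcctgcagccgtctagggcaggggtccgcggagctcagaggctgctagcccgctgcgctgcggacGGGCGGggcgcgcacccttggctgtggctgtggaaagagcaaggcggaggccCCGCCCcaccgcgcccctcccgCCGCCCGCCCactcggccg
Each window holds 4 matches. Of the 57 members, 40 had windows in the RefSeq table (43 windows). The GC box was in 26 of these and in 32.7% of all 32817 windows. TATAAA was in 5 of them and in 12.4% of all windows, and CCAAT in 14 and in 33.8%. These are matches of letters, not sites of binding.

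Krt8-high cells carried the chains of type VI collagen, which forms beaded filaments around cells. Col6a1 was at 470.5, 283.5, 414.5 and 460.3 CPM in metastasis-bearing brains and 479.7, 484.9, 423.1 and 448.8 CPM in naive ones. Col6a2 was at 187.6, 104.9, 159.4 and 171.3 CPM with metastases and 190.4, 179.2, 177.1 and 161.9 CPM without. Col6a3 was at 259, 263.5, 302.7 and 381.1 CPM with metastases and 309.1, 258.3, 364.1 and 332.9 CPM without. With metastases the lowest Krt8-high value of each chain lay above the highest value of every other class. The fibroblast-led cells within the vascular cluster were an exception to this order: they held Col6a2 at 428.9, 275, 298.8 and 372.4 CPM, above every Krt8-high value, and Col6a1 at 559.1, 197.7, 485.5 and 603.3 CPM. The 8 fibroblast markers, all detected, summed to 1041 to 1176 CPM in Krt8-high cells, against 351.5 to 1356 CPM in vascular-like cells, and Ptprc (CD45) was at 2.702 CPM in Krt8-high cells; their part in the result was not tested. The ratio of Col6a1 to Col6a2 hardly varied, at 2.51, 2.7, 2.6 and 2.69 with metastases and 2.39 to 2.77 without. Krt8-high cells also held the minor fibrillar chains Col5a3 (125.1, 121.3, 117.9 and 139.8 CPM) and Col5a1 (87.48, 69.6, 76.21 and 79.44 CPM). Col5a3 in naive Krt8-high cells was at 131.1, 121.2, 88.55 and 114 CPM. Col18a1, whose end is released as endostatin, was at 143.5, 75.43, 142 and 156.1 CPM in Krt8-high cells and overlapped the vascular range. Col3a1 was at 21.43 CPM and Col1a1 at 2.7 CPM in this class.

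Sparc was the leading member in microglia. It encodes a secreted collagen-binding glycoprotein. In metastasis-bearing brains microglia-like cells held 2437 and 2862 CPM in the heterozygous and 2321 and 1833 CPM in the homozygous brains. Naive microglia-like cells held 3619 and 3636 against 3085 and 3161 CPM. The homozygous values lay below the heterozygous ones in both states. Vascular-like cells were close, at 1222, 1485, 2954 and 2270 CPM, and overlapped the microglial range, while Krt8-high cells stood at 601 to 661 CPM in metastasis-bearing brains. Naive endothelial-like cells held 1606, 1439, 1908 and 1440 CPM. By depth, microglial Sparc with metastases was at 2576 CPM in cells of at least 8000 raw UMIs and 2346 CPM in shallower ones. The 8 endothelial markers, all detected, summed to 59.62 to 145.5 CPM in microglia-like cells with metastases, against 10690 to 15600 CPM in vascular-like cells.

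The window before Sparc, the member with the highest microglial level, is at chr11:55420081-55420330 (minus strand of GRCm38.p6, RefSeq) and held none of the 3 motifs on either strand.
Sparc: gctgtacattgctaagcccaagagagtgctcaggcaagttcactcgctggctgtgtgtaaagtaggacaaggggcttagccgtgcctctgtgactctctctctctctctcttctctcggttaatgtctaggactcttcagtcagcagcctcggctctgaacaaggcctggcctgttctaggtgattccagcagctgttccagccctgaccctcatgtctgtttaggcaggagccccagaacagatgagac
Its GC content was 54%, against 60.8% for the Col8a1 and 70% for the Col8a2 window.

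Col27a1, a fibrillar chain, was the other microglial member. It stood at 84.91, 93.89, 65.68 and 97.1 CPM in metastasis-bearing and at 132.1, 145.9, 148.6 and 176.3 CPM in naive microglia-like cells. An unnamed naive cluster of few UMIs had more, at 151, 178.4, 202.9 and 186.4 CPM, with Sparc at 701.6 and Mgp at 1106 CPM in the mean. That cluster had a median of 1405 raw UMIs per cell and mixed genes of several cell types. Its Col27a1 was at 182.5 CPM in 536 cells under 8000 raw UMIs and at 6.083 CPM (1 UMI) in the 18 deeper cells, and its Mgp at 582.8 and 10130 CPM, so neither mean is read as a level of 1 cell type. No other class of metastasis-bearing brains had Col27a1 above a mean of 25.8 CPM.

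Fibronectin (Fn1), which links matrix to integrins, was shared by vascular-like and monocyte/macrophage-like cells. Vascular-like cells had 605.4, 482.6, 834.8 and 850.8 CPM and monocyte/macrophage-like cells 533.9, 274.5, 345.7 and 431.3 CPM, and the ranges overlapped. Microglia-like cells had a mean of 39.1 CPM with metastases and 2.6 CPM in naive brains, and Krt8-high cells 1.3 CPM in metastasis-bearing brains. Of naive classes, an unnamed myeloid cluster with neutrophil and monocyte markers was highest, at 355, 292.9, 476.3 and 524 CPM. It overlapped endothelial-like cells (412.9, 192.6, 163.6 and 278.8 CPM) and mural-like cells (mean 275.8 CPM). Its Fn1 was at 498.9 CPM in 138 cells of at least 8000 raw UMIs and at 4.504 CPM in the 33 shallower cells. The other unnamed myeloid cluster, whose highest marker sum was that of monocytes and macrophages (7615 CPM), averaged 31 CPM.

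**Figure D2:**
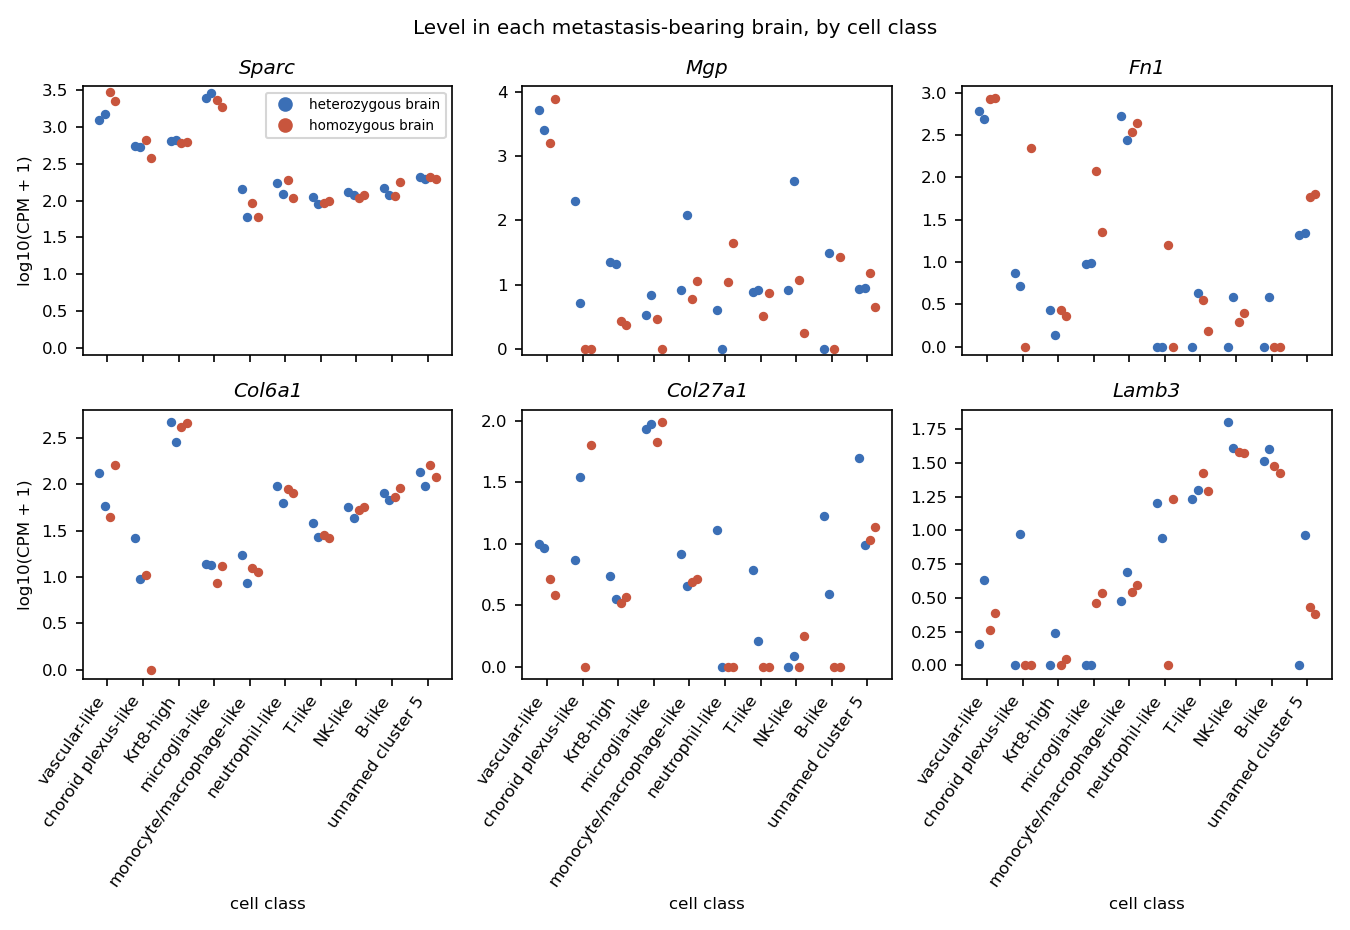
Level of 6 members in each metastasis-bearing brain (points; blue heterozygous, red homozygous) by cell class, as log10(CPM + 1), each panel on its own scale. Sparc is highest in microglia-like and vascular-like cells, Fn1 in vascular-like and monocyte/macrophage-like cells, and Lamb3 in lymphocyte classes.

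Lymphocyte classes held 1 laminin chain, Lamb3, at more than the other classes. Lamb3 is a beta chain of the laminin under skin epithelium. It was at 62.86, 39.54, 37.02 and 36.5 CPM in NK-like cells of metastasis-bearing brains. It averaged 31.3 CPM in B-like and 19.8 CPM in T-like cells, against 9.66 CPM in neutrophil-like, 1.1 CPM in microglia-like, 1.5 CPM in vascular-like and 0.2 CPM in Krt8-high cells. The laminin alpha chain Lama3 was at a mean of 0 CPM in NK-like cells. Naive T/NK-like cells held Lamb3 at 39.69 ± 18.15 CPM.

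The depth correction bore on low levels in shallow cells. Among T-like cells of metastasis-bearing brains, all 58 cells under 3000 raw UMIs and all 433 cells of 3000 to 5000 had a corrected Sparc UMI. Of the 104 cells of 12000 or more, 6.731% had one. Col6a1 was in 100% of T-like cells under 3000 raw UMIs and in 6.731% of those of 12000 or more. Lamb3 went the other way, from 6.897% to 30.77%. In cells of at least 8000 raw UMIs the T-like Sparc level was 15.32 CPM, against 111.5 CPM in shallower cells, while Lamb3 was at 35.86 and 15.93 CPM. In NK-like cells Sparc was at 40.23 against 124.3 CPM and Lamb3 at 39.2 against 39.62 CPM. Sparc and Col6a1 levels of lymphocyte classes of metastasis-bearing brains are therefore given as corrected values and not read as expression. Naive lymphocytes held more Sparc in cells of at least 8000 raw UMIs than in shallower ones. It was at 583.5 against 119.1 CPM in T/NK-like and at 1384 against 316 CPM in B-like cells (63 and 29 deeper cells). All 24 naive T/NK-like cells under 3000 raw UMIs still had a corrected Sparc UMI. The source of the naive Sparc was not tested.

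**Figure D3:**
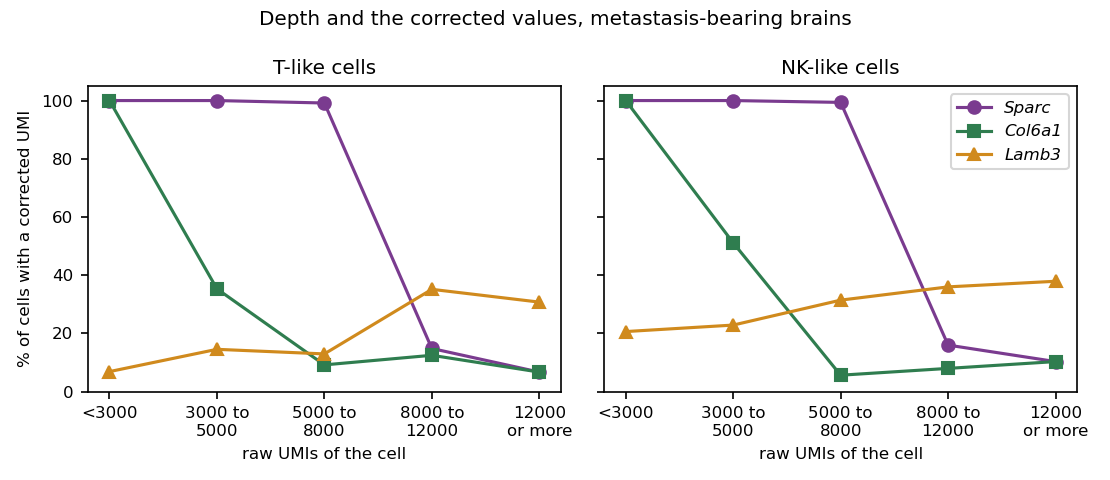
Share of T-like (left) and NK-like (right) cells of metastasis-bearing brains with at least 1 corrected UMI of Sparc, Col6a1 or Lamb3, in %, by the raw UMIs of the cell. Sparc is in 100% of the cells under 5000 raw UMIs and in 6.731% (T-like) and 10.34% (NK-like) of those of 12000 or more, while Lamb3 is more frequent in deeper cells.

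The genotype comparison asked whether the members' levels differed between Cx3cr1+/- and Cx3cr1-/- brains. It was tested with limma in each class with at least 20 cells in every brain, over all genes above a mean of 10 CPM. Cx3cr1 itself checked the labels. In microglia-like cells it was at 1363 and 1464 CPM in heterozygous brains with metastases and 113.5 and 31.56 CPM in homozygous ones, a log2 difference of -4.31 (limma adjusted p = 0.0176). In naive brains it was at 1953 and 1852 against 75.63 and 71.38 CPM, a log2 difference of -4.52 (limma adjusted p = 5.17e-27).

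In vascular-like cells of metastasis-bearing brains no member passed the threshold. Of 8896 genes tested, 0 passed a limma adjusted p of 0.05 (0%), while 918 had an unadjusted p under 0.05, among them 11 of the 31 members tested. Col4a1 differed by 1.20 (SE 0.17) on the log2 scale and Nid2 by 1.47 (SE 0.21), both at a limma adjusted p of 0.211. Without the second homozygous brain 9 of 30 members passed, against 1.91% of all genes, and without the first 1 of 32, against 0.0561%. The 2 genotypes did not overlap for 17 of the 31 members, against 42.8% of all genes. The homozygous brains were higher without overlap for 14 of the 31 members and for 23.4% of all genes, which is 14 of 17 members and 54.8% of genes among those not overlapping. The median log2 difference was 0.41 over the 31 members and 0.01 over all genes tested.

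The 354 endothelial-led cells were fitted alone as an alternative chosen after the vascular values were seen. In them 6 of 28 members tested passed the limma threshold, all higher in the homozygous brains, against 89 of 8638 genes (1.03%). They are the type IV pair, the laminin chains Lama4 and Lamb1, nidogen 2 and Sparc. Col4a1 was at 441 and 365.7 CPM in the heterozygous and 1124 and 960.5 CPM in the homozygous brains, a log2 difference of 1.35 (SE 0.14). Col4a2 was at 301.7 and 202.8 against 763.4 and 599.1 CPM, a difference of 1.41 (SE 0.19). Both homozygous brains exceeded both heterozygous brains for either chain, with limma adjusted p of 0.00849 and 0.0187.

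Lama4 stood at 52.54 and 43.02 against 167.7 and 119.8 CPM, a log2 difference of 1.40 (SE 0.21). Lamb1, a beta chain that can pair with it, was at 23.02 and 12.29 against 108.9 and 63.9 CPM, a difference of 1.79 (SE 0.3). Nid2 was at 18.89 and 10.24 against 67.25 and 63.9 CPM, a difference of 1.64 (SE 0.25). Sparc was at 1208 and 1434 against 3105 and 2460 CPM, a difference of 1.06 (SE 0.14). For these 4 the genotypes did not overlap either, and the limma adjusted p was 0.026, 0.0323, 0.026 and 0.0177.

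**Figure D4:**
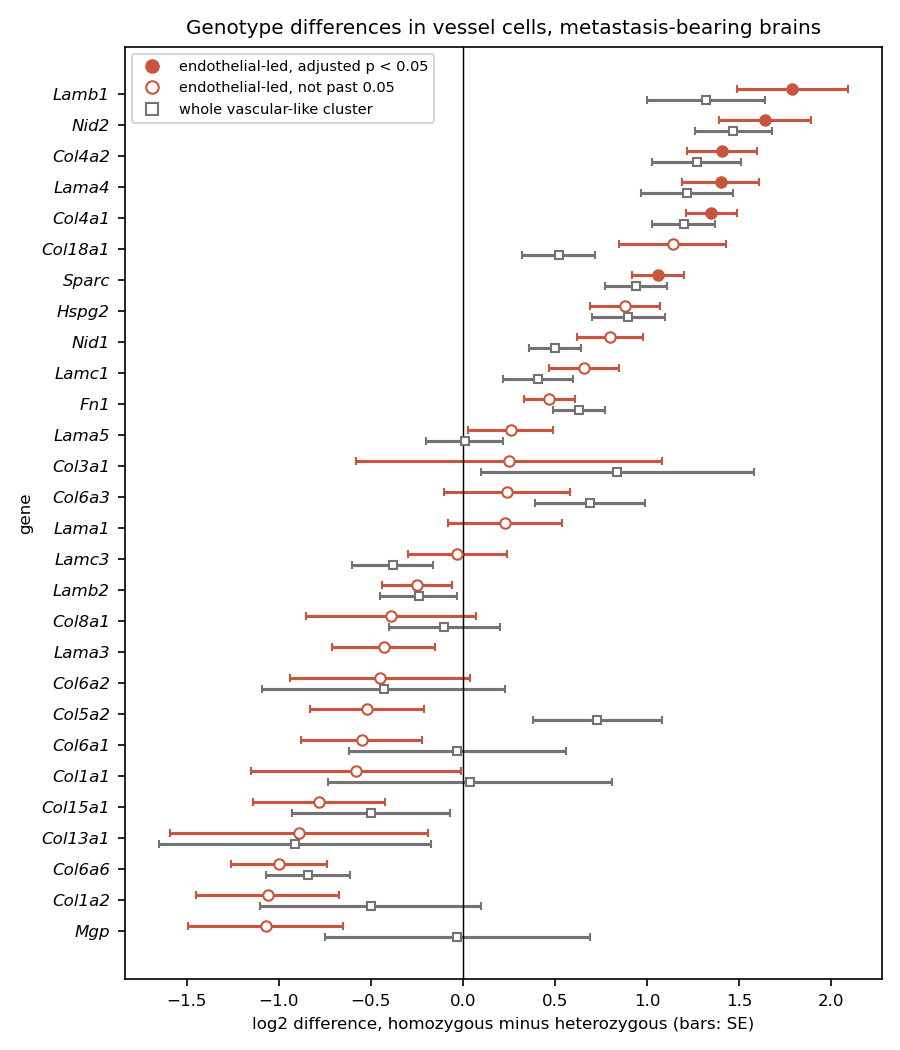
Log2 difference (homozygous minus heterozygous, bars SE) of the 28 members tested in endothelial-led cells of metastasis-bearing brains (red, filled where the limma adjusted p is under 0.05), with the whole vascular-like cluster in grey where tested. The 6 filled points lie between 1.06 and 1.79.

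Other members of the same sheets did not pass. Hspg2 (0.88, limma adjusted p = 0.0789) and Nid1 (0.80, limma adjusted p = 0.0793) missed the threshold, as did Lamc1 (0.66) and Col18a1 (1.14). Lamb2, at a difference of -0.25 (SE 0.19), and Mgp, at -1.07 (SE 0.42), did not pass either. In partner ratios, Nid1 was 4.56 and 7 times Nid2 in the heterozygous and 2.23 and 2.19 times in the homozygous brains, while Col4a1 was 1.46 to 1.8 times Col4a2 in all 4. Over all genes 42.8% did not overlap between genotypes, and 16 of the 28 members did not. The homozygous brains were higher without overlap for 12 of the 28 members and for 23.2% of all genes, which is 12 of 16 members and 54.2% of genes among those not overlapping. The median log2 difference was 0.24 over the 28 members and 0 over all genes.

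Several measures moved with genotype in the endothelial-led cells. Their median raw UMIs were 6176 and 6998.5 in heterozygous and 10134.5 and 12150 in homozygous brains, and Col4a1 was at 907.2 CPM in cells of at least 8000 raw UMIs against 336 CPM in shallower ones. Among the deeper cells alone (61, 39, 58 and 24 per brain) the Col4a1 difference was 1.24, with 603.5 and 474.6 against 1413 and 1151 CPM. The Sparc, Nid2, Lama4 and Col4a2 differences there were 1.02, 1.54, 1.32 and 1.28, at limma adjusted p from 0.00924 to 0.0269, and Lamb1 no longer passed (1.66, limma adjusted p = 0.067). The 9 mural markers summed to 2328 and 2861 against 1754 and 1590 CPM, and the 8 fibroblast markers, with Dpt at 0, to 276.3 and 459.9 against 87.14 and 193.7 CPM. The 6 cycling markers summed to 358.3 and 206.9 against 695.2 and 623 CPM, and their part in the result was not tested. The Krt8-high markers summed to 87.96 and 68.63 against 67.25 and 109.8 CPM, with Krt7 at 0. Krt8-high cells held Lama4 at 0.1 and Nid2 at 0.2 CPM, but Col4a1 at a mean of 254.5 and Col4a2 at 78.05 CPM. They also held 681 corrected UMIs of Lamb1, and Sparc at the level given above. The part of Krt8-high RNA in the result was not tested. The calls depended on single brains and on the variance model. Without the second heterozygous brain only Col4a1 and Sparc passed, and without the first homozygous brain only Col3a1 and Col4a1. That Col3a1 call rested largely on 1 cell, which held 78 of the 82 Col3a1 UMIs of the second homozygous brain. Without the second homozygous brain more members passed, and with a variance not tied to expression 0 did.

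In naive endothelial-like cells, which numbered 31, 32, 17 and 37 and were not tested, the genotypes overlapped for 5 of the 6. Over the 31 members above a mean of 10 CPM there, 10 did not overlap, against 32.2% of all genes. Lama4 was at 87.16 and 47.16 against 46.73 and 77.65 CPM and Nid2 at 27.52 and 51.09 against 15.58 and 31.77 CPM. Lamb1 was at 32.11 and 55.02 against 93.47 and 52.95 CPM. Col4a2, the exception, was higher in both homozygous brains, as given above. Whether the genotype difference itself differed between the states was not tested.

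**Figure D5:**
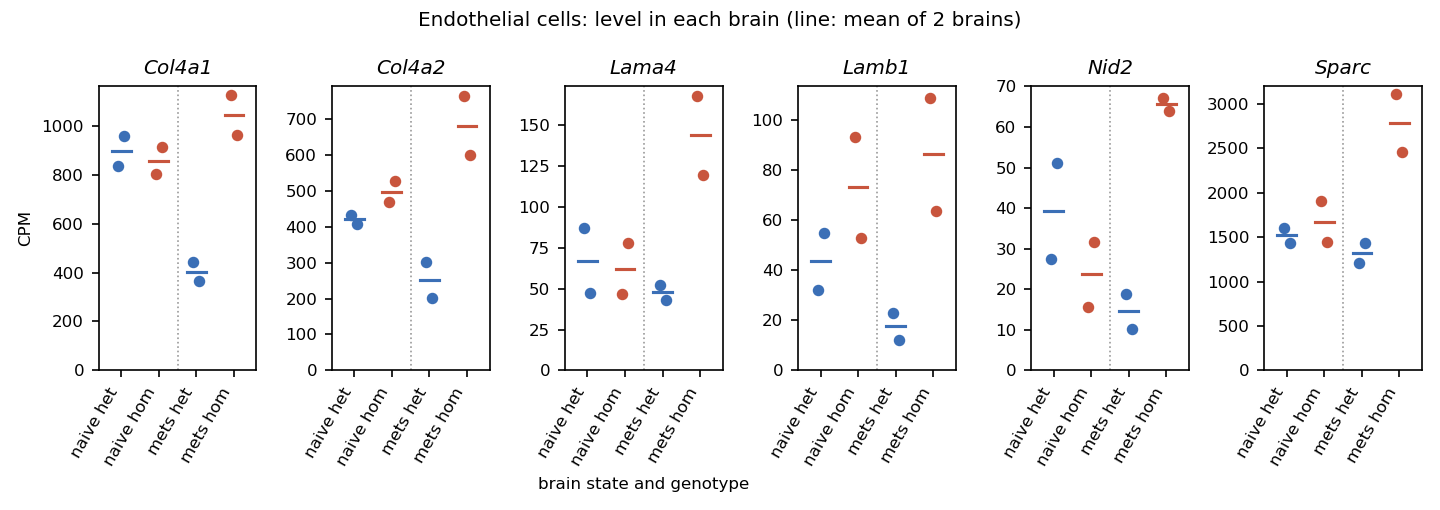
CPM of the 6 members in each brain (points; blue heterozygous, red homozygous; lines mark the mean of 2 brains) for naive endothelial-like cells and endothelial-led cells of metastasis-bearing brains, tables corrected separately. With metastases the homozygous points lie above the heterozygous ones in all 6 panels; in naive brains they overlap in 5 of the 6 and do not for Col4a2.

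In Krt8-high cells 1 of 19 members tested passed, against 2 of 8011 genes (0.025%). Mgp was at 21.53 and 20.04 CPM in the heterozygous and 1.673 and 1.34 CPM in the homozygous brains (log2 difference -1.42, SE 0.11, limma adjusted p = 0.00856). It rested on 2 cells: 1 cell held 61 of 63 UMIs in the first and 1 cell 46 of 55 in the second heterozygous brain. Without the cell with the most Mgp in each brain it was not called. Its mean of 11.15 CPM passed the filter on low values only through the heterozygous brains, so this call supports nothing. Without the first heterozygous brain 10 of 18 members passed, against 26.9% of all genes, and without the second 2 of 18, against 3.02%. Genotypes did not overlap for 4 of the 19, against 39.2% of genes. The next members were Col6a3 (0.37, SE 0.13) and Col16a1 (0.30, SE 0.14), a fibril-associated collagen, with Col18a1 at 0.47 (SE 0.24), each at a limma adjusted p of 0.784.

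In microglia-like cells no member passed. With metastases 0 of 6 members tested did, against 6 of 7374 genes (0.0814%), and in naive brains 0 of 5, against 44 of 7693 (0.572%). The Sparc difference was -0.35 (SE 0.15, limma adjusted p = 0.57) with metastases and -0.22 (SE 0.07, limma adjusted p = 0.25) in naive brains. The genotypes did not overlap for 3 members in each state, against 40.6% and 37.2% of genes. Fn1 was at 8.579 and 8.802 against 117.3 and 21.85 CPM with metastases (1.77, SE 0.55, limma adjusted p = 0.447), and 1 cell held 41 of the 125 UMIs of the first homozygous brain. Naive Col27a1 differed by 0.21 (limma adjusted p = 0.588) and Col15a1 by -0.29 (limma adjusted p = 0.665), with genotypes not overlapping. The interaction of genotype and state passed for 0 of 4 members, against 1 of 7065 genes (0.0142%), with Sparc at -0.14 (SE 0.17) and Col27a1 at -0.35 (SE 0.23).

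The other classes gave no call among the members. In monocyte/macrophage-like cells 0 of 4 members passed, against 1 of 6980 genes (0.0143%), and Fn1 differed by 0.01 (SE 0.29). Sparc differed by -0.29 (SE 0.37), and by -0.87 (limma adjusted p = 0.0487) without the second heterozygous brain, where 3.31% of all genes passed. Mgp there differed by -1.44 (limma adjusted p = 0.78), with 1086 of 1132 UMIs of the second heterozygous brain in 1 cell. In NK-like cells 0 of 6 passed, against 3 of 6299 genes (0.0476%). Lamb3 differed by -0.36 (SE 0.25) in NK-like cells, and Mgp by -2.50 with 1798 of 1813 UMIs of the second heterozygous brain in 1 cell. In T-like cells 0 of 6 members and 0 of 6524 genes passed (0%), with 297 genes at an unadjusted p under 0.05, and Col6a3 differed by -0.47 and Lamc1 by 0.27, both at a limma adjusted p of 0.972. In naive T/NK-like cells 0 of 4 passed, against 16 of 7453 genes (0.215%), with Col6a3 at -1.18 (limma adjusted p = 0.809) and Lamb3 at 0.72 (limma adjusted p = 0.908).

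Genes that make, cut or bind matrix were read from 4 further lists, of collagen making (27 genes), matrix breakdown and its inhibitors (28), matrix receptors (27) and other matrix genes (47). In endothelial-led cells 1 of 17 tested collagen-making genes passed, 1 of 12 for breakdown, 1 of 18 receptors and 0 of 26 other matrix genes, each call being higher in the homozygous brains. Serpinh1, the collagen chaperone of the endoplasmic reticulum, was at 197.2 and 234.6 against 472.6 and 449.3 CPM (log2 difference 1.06, limma adjusted p = 0.0177). Adamts9, a secreted proteoglycan-cutting protease, was at 33.06 and 28.68 against 117.5 and 105.8 CPM (1.57, limma adjusted p = 0.0163). Itga6, an integrin chain of laminin receptors, was at 216.7 and 185.4 against 392.1 and 353.5 CPM (0.86, limma adjusted p = 0.0356). The median differences of the 4 lists were 0.23, 0.82, 0.05 and -0.39, against 0 for all genes. In the whole vascular cluster 0 of 19, 15, 21 and 32 tested passed, with Serpinh1 at 0.76 and Adamts9 at 1.27 (each at a limma adjusted p of 0.211) and Itga6 at 0.89 (limma adjusted p = 0.219).

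In naive microglia-like cells Adamts1, a secreted protease of the matrix breakdown list, was higher in the homozygous brains. It was at 462.7 and 486.2 against 760.8 and 793 CPM (log2 difference 0.70, limma adjusted p = 1.41e-06). In naive T/NK-like cells Adamts1 was at 26.11 and 11.48 against 76.68 and 85.44 CPM (1.71, limma adjusted p = 0.0386), the only call there, which was lost with median-ratio scaling, a pseudocount of 1 CPM or no trend in the variance. With no trend in the variance no gene of the lists was called in naive microglia either. No gene of the 4 lists passed in microglia-like, Krt8-high, monocyte/macrophage-like, T-like or NK-like cells of metastasis-bearing brains.

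The remaining members were sparse. In metastasis-bearing brains Col4a6, Col6a4, Col6a5, Col9a2, Col10a1, Col20a1 and Col28a1 had under 20 corrected UMIs over all cells. A further 8 members stayed at or under a mean of 10 CPM in every class there, with the vascular-like cluster taken whole. Among them were the cartilage chains Col2a1, Col11a1 and Col11a2 and the laminin chains Lama1 and Lama3. Within that cluster Col11a1 averaged 35.39 CPM in fibroblast-led and Lama3 10.53 CPM in endothelial-led cells. In naive brains 11 of the 53 members had under 20 corrected UMIs.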

How the data were processed

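Single-cell RNA of 8 hashtagged brains was analysed from 2 tables and their cell metadata. Per the submitters' processing notes, Cell Ranger 3.1, Seurat 3.1.1 and mm10 were used. The authors deposited the natural log of 1 plus a depth-corrected UMI count, corrected separately for each state (100% of nonzero values were whole after back-transformation, within 1e-06). The deposited metadata gave raw UMI counts, cluster, hashtag and genotype per cell. All cells carried the authors' singlet label, and no doublet caller was run. Clusters were named by hand from marker lists. The members and lists were chosen with earlier results of these data known.

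Corrected UMIs were summed per brain and class, scaled to 1000000 (CPM), and log2(CPM + 10) was fitted with limma 3.58.1 (lmFit, eBayes with trend; R 4.3.3) for genes above a mean of 10 CPM. Benjamini-Hochberg adjustment ran over all genes tested, with 0.05 as the threshold, and differences are homozygous minus heterozygous on that log2 scale, which understates low genes. Named are members above 100 CPM in a class, members called, and the 3 with the smallest p per comparison. Cells of at least 8000 raw UMIs, the endothelial-led cells and the removal of single Mgp-rich cells were chosen after seeing the data. Some genes of the lists are not reported here by name. Sums and figures were made in Python 3.11.15 (matplotlib 3.10.9, with numpy 2.4.6 and pandas 2.3.3).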

Additional observations from a re-analysis of the deposited data

How the results depend on the processing

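With 2 brains per genotype, and the choroid plexus-like and mural-like classes too small to test, small differences were not detectable. Of 343 alternative values of 33 single-member differences, 307 kept their direction and side of the threshold, 20 lost and 12 gained a call, and 4 reversed: Sparc in monocyte/macrophage-like cells was 0.29 without the first heterozygous brain (and -0.87 without the second), Lamc1 in naive T/NK-like cells 0.24 in all deposited cells, and in the interaction Col15a1 was -0.04 in cells of at least 8000 raw UMIs and Col6a1 0.13 in all deposited cells. Of 308 alternative levels, 32 moved by more than 1 SD. The 1 call in Krt8-high cells became 0 with no filter on low values, in all deposited cells, in cells of at least 8000 raw UMIs and without the Mgp-richest cell of each brain. The 6 calls in endothelial-led cells became 0 with no trend in the variance. The 20 members above 100 CPM with metastases became 13 in cells of 5000 to 15000 raw UMIs. On the related lists, the 2 calls in naive microglia became 1 with median-ratio scaling, all deposited cells or cells of 5000 to 15000 raw UMIs and 0 with no trend, and the 1 call in naive T/NK-like cells became 0 under these and with a pseudocount of 1 CPM. The 3 in endothelial-led cells became 0 with no trend and 5 in cells of at least 8000 raw UMIs. The causes were not tested.

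Leaving out 1 brain at a time gave 1 to 10 members called in Krt8-high cells (10 without the first heterozygous brain), 0 to 1 in monocyte/macrophage-like, microglia-like and NK-like cells with metastases, 0 to 9 in vascular-like and 2 to 10 in endothelial-led cells. The related lists then gave 0 to 26 calls in Krt8-high, 0 to 4 in monocyte/macrophage-like and NK-like, 0 to 2 in T-like, 1 to 2 in microglia-like (both states), 0 to 9 in vascular-like, 1 to 9 in endothelial-led, 0 to 1 in naive T/NK-like cells and 0 to 2 in the interaction. The lone brain of a genotype is then assumed to vary like the others. The share of all genes called also changed with the brain left out, and was highest in Krt8-high cells without the first heterozygous brain. The ranges are therefore not read as findings on matrix genes. Cells of 5000 to 15000 raw UMIs were not run for Krt8-high, NK-like and endothelial-led cells, nor cells of at least 8000 for T-like, NK-like and naive T/NK-like cells, which left too few cells. No paired analysis was possible because the hashtags carry no replicate number shared between genotypes.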
